A study of Mus musculus with 2 samples.

Results

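The regions described are 2 arrays of duplicated KRAB zinc finger genes in the mouse genome, cut into bins of 1 kb. On chromosome 2 the array was taken as chr2:175000001-176700000 (mm9) and on chromosome 4 as chr4:145200001-147500000 (mm9), which gave 1700 and 2300 bins, 4000 in all, next to the 2299806 bins of chromosomes 1 to 19 and X that held a read in either library. The intervals were set by position and not by read counts. The 1.5 Mb on each side of a cluster served as its flanks, the proximal flank on the side nearer the centromere and the distal flank beyond the cluster, 3000 bins for each cluster.

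The series holds 2 libraries of precipitated DNA from mouse embryonic stem (ES) cells, which are pluripotent cells of the early embryo, here kept in LIF with no feeder layer. In the library labelled H2ABbd, formaldehyde-crosslinked chromatin sonicated to 200 to 400 bp was precipitated with a home-made rabbit antibody against mouse H2ABbd, and fragments of 200 to 600 bp went through 20 PCR cycles. In the library labelled 5mC, genomic DNA sonicated to 100 to 400 bp was denatured and precipitated with a mouse antibody against 5-methylcytosine (clone 33D3), then amplified for 15 cycles and sized to 220 to 420 bp. Each group is 1 library and no input library was used here, so no difference below has a replicate check, no test of conditions was made, and unequal copy number or uniqueness of sequence cannot be told apart from unequal precipitation. The names of the deposited files assign each antibody to the opposite sample from the labels. The labels were followed, and every direction between the libraries rests on them.

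KRAB zinc finger proteins bind DNA through a row of C2H2 zinc fingers, and their KRAB domain recruits TRIM28 (KAP1), which brings in the histone methyltransferase SETDB1 and leads to H3K9me3, a mark of silent chromatin. Their genes arose by repeated tandem duplication, lie side by side in clusters, and in mouse ES cells many of the proteins act on endogenous retroviruses. H2ABbd, a histone variant related to H2A and found in mammals, lacks part of the usual C-terminal tail. 5-methylcytosine is the methylated base found mostly at CpG sites.

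How alike the copies are can be read from their promoters. In RefSeq (GRCm38.p6), 80 genes lie between Edn3, which encodes an endothelin, and Phactr3, a phosphatase and actin regulator, on chromosome 2, among them 32 protein-coding genes and 25 pseudogenes. Between Tnfrsf8, the CD30 receptor, and Miip on chromosome 4 lie 82 genes, 19 of them protein-coding and 56 pseudogenes. Those gene positions are on another build than the reads, so which of these genes fall inside the mm9 intervals was not determined and no read count is attached to a gene. A promoter sequence of 300 bases around the gene start was at hand for 48 genes of the chromosome 2 neighbourhood and 19 of the chromosome 4 neighbourhood. Each was cut into all its words of 42 bases, the length of the reads, and a word was called shared when the promoter of another gene with no overlapping position held the same word on either strand. Where a gene had several promoter sequences, the one with the largest shared part stood for it, also for CpG counts below. Partner genes were counted over all sequences of a gene.

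The promoters below were chosen to show how alike these copies are and that some of them hold no shared word. A promoter without a shared word can still be similar to others over shorter stretches. All are given 5′ to 3′ on the strand of the gene, and capitals mark bases inside a shared 42-base word. Zfp966 lies on the minus strand at chr2:175931051-175931350 (GRCm38.p6). Zfp967 lies on the plus strand at chr2:176520754-176521053, and its 300 bases differed from those of Zfp966 at 0 positions. Zfp972, also in the chromosome 2 neighbourhood (chr2:177925601-177925900, minus strand), held no shared word. Zfp600 (chr4:146156577-146156876, plus strand) and Rex2 (chr4:147021600-147021899, plus strand) are from the chromosome 4 neighbourhood, and Zfp933 (chr4:147848369-147848668, minus strand) from the same neighbourhood held none.
Zfp966: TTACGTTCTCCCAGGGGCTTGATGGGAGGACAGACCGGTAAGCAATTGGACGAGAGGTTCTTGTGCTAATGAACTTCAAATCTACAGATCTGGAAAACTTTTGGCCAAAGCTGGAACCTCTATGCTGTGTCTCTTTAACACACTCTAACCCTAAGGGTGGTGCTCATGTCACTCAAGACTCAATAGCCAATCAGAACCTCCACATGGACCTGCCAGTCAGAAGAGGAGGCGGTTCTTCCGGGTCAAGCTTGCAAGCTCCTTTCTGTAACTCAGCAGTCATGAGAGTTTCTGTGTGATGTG
Zfp972: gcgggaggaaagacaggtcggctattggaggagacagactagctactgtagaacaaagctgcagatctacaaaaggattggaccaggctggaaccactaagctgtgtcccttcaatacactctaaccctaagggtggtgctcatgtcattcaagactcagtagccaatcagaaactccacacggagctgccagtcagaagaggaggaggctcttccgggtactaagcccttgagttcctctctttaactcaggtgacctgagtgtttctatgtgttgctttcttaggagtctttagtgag
Zfp600: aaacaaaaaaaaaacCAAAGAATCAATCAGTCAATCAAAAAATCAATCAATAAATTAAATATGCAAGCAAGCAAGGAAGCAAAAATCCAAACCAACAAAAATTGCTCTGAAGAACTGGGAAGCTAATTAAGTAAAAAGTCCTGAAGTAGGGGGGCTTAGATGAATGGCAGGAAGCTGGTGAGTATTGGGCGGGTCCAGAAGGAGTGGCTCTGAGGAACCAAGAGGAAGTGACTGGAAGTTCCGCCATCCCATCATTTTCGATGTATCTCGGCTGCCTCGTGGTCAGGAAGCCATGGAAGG
Rex2: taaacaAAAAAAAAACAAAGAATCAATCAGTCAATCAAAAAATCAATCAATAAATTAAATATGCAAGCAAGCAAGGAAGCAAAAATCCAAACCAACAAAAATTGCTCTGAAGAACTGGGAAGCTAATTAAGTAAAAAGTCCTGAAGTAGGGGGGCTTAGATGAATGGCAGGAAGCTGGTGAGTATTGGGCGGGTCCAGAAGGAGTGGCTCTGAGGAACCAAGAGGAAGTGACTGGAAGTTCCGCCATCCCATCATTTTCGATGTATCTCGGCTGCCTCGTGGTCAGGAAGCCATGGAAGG
Zfp933: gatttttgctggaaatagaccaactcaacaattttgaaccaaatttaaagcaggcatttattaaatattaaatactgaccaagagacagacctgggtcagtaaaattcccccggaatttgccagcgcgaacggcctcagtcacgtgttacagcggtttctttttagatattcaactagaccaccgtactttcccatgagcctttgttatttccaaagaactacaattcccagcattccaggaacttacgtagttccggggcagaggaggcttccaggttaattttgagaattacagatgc

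Aligned without gaps, the promoters of Zfp600 and Rex2 had 98.7% identity. They differed by A1T, C4A, A5C and C15A, where positions count from 1 at the 5′ end, the first letter is the base of Zfp600 and the last that of Rex2. Near their starts both hold the same run of A and C, offset by a base. A comparison with gaps would therefore not count these as 4 base changes. In the chromosome 2 neighbourhood 32 of 48 promoters (66.7%) held a shared word, 13 were made of shared words alone, and the median promoter had 66.4% of its words in another gene's promoter. Zfp966 shared words with 25 other genes, and several promoters of this neighbourhood did so with 27. On chromosome 4 16 of 19 promoters (84.2%) held a shared word, 0 were made of them alone, the median was 21.2%, and the widest sharing was with 7 genes. Among the 20 nearest genes with a promoter on each side, 1 of 40 on chromosome 2 and 6 of 40 on chromosome 4 held a shared word, and over all genes 2670 of 27025 (9.88%) did. A 42-base read from a shared word has more than 1 possible origin. Promoters made wholly of shared words were thus found in the chromosome 2 neighbourhood and not among those of chromosome 4.

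**Figure D1:**
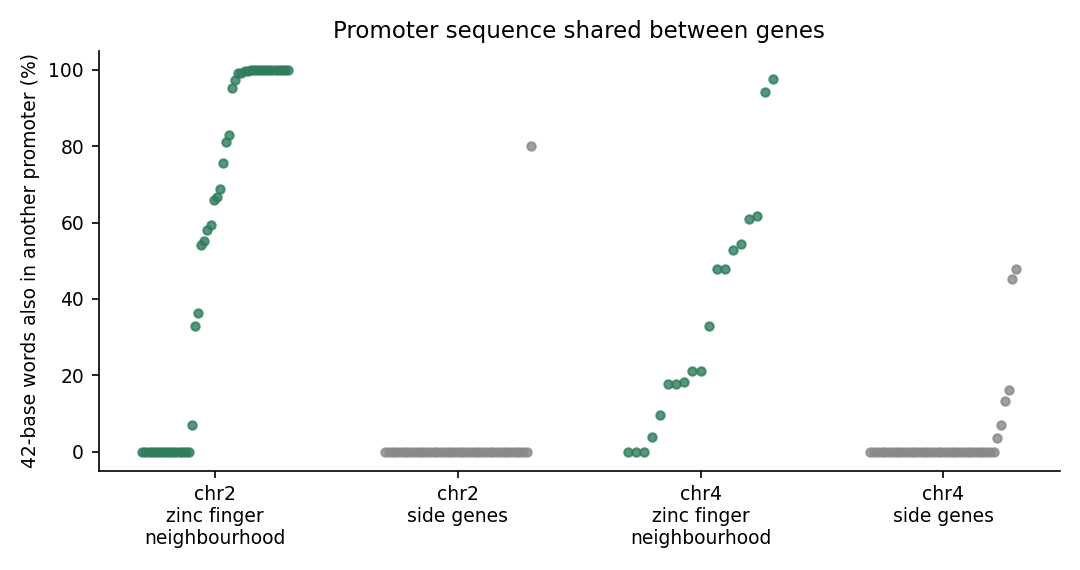
Share of the 42-base words of each gene's promoter (%) that also occur in the promoter of another gene, for the zinc finger neighbourhoods (green) and the 40 genes beside each (grey). Each point is 1 gene, sorted from low to high within its group. In the chromosome 2 neighbourhood 13 of 48 genes sit at 100%, whereas no gene of the chromosome 4 neighbourhood does.

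CpG is where an antibody against 5-methylcytosine finds most of its target. The median promoter of the chromosome 2 neighbourhood held 3.5 CpG sites and that of the chromosome 4 neighbourhood 4, against a median of 7 over all 27025 genes, and the highest counts were 7 on chromosome 2 and 9 on chromosome 4. Zfp966 held 5, Zfp972 4, Zfp600 and Rex2 5 each, and Zfp933 9.

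The library labelled H2ABbd held 3503839 aligned reads of 42 bp at 1397289 distinct positions, and the library labelled 5mC 9266471 reads at 8056333. A position is distinct by chromosome, 5′ end and strand, and was counted once unless stated. Of these positions the 2 clusters held 2305 (H2ABbd) and 17279 (5mC). Most intervals below are exact 95% intervals, Clopper-Pearson for shares and Poisson for counts, and a ratio of 2 counts has the exact conditional interval. The library ratio of a cluster over that of its flanks, described below, has an approximate 95% interval instead, a Wald interval on the log scale. Since PCR copies cannot be told from separate molecules without molecular identifiers, the intervals cover counting error only. Counts per bin were also more spread than Poisson counts, with a variance of 2.36 (H2ABbd) and 1.71 (5mC) times the mean in the chromosome 2 cluster and 3.67 (H2ABbd) and 4.38 (5mC) times in the chromosome 4 cluster, so they are too narrow for a spread over bins.

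The 2 clusters differed in opposite ways from the rest of the genome. The chromosome 2 cluster was sparse in both libraries. The library labelled H2ABbd had 0.193 distinct reads per kb there (328 reads, interval 0.173 to 0.215), against 0.642 in its flanks, so the cluster stood at 0.301 times the flank density (0.267 to 0.338). The library labelled 5mC had 1.62 reads per kb in the cluster (2747 reads, 1.56 to 1.68) and 3.59 in the flanks, a ratio of 0.450 (0.431 to 0.469). The flank sides were not alike. The density of the cluster was 0.239 times that of the proximal and 0.405 times that of the distal flank in the library labelled H2ABbd, and 0.389 and 0.533 times in the library labelled 5mC. Against all autosomes, the cluster stood at 0.346 times for H2ABbd (autosomal density 0.557 reads per kb) and 0.508 times for 5mC (3.18).

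The chromosome 4 cluster was dense in 5mC reads. The library labelled 5mC had 6.32 reads per kb there (14532 reads, 6.22 to 6.42) and 4.73 in the flanks, a ratio of 1.34 (1.30 to 1.37), and 1.98 times the autosomal density. The cluster exceeded each flank taken alone, by 1.67 times on the proximal and 1.11 times on the distal side. For the library labelled H2ABbd it had 0.860 reads per kb (1977 reads, 0.822 to 0.898) and the flanks 0.984, a ratio of 0.874 (0.825 to 0.925). That ratio joined flanks that lay on opposite sides of the cluster's own level. The cluster stood at 1.75 times the proximal flank (0.491 reads per kb) and at 0.582 times the distal flank (1.48 reads per kb), and at 1.54 times the autosomes. For H2ABbd the chromosome 4 cluster was therefore a level between those of its neighbours, with no common direction against both.

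**Figure D2:**
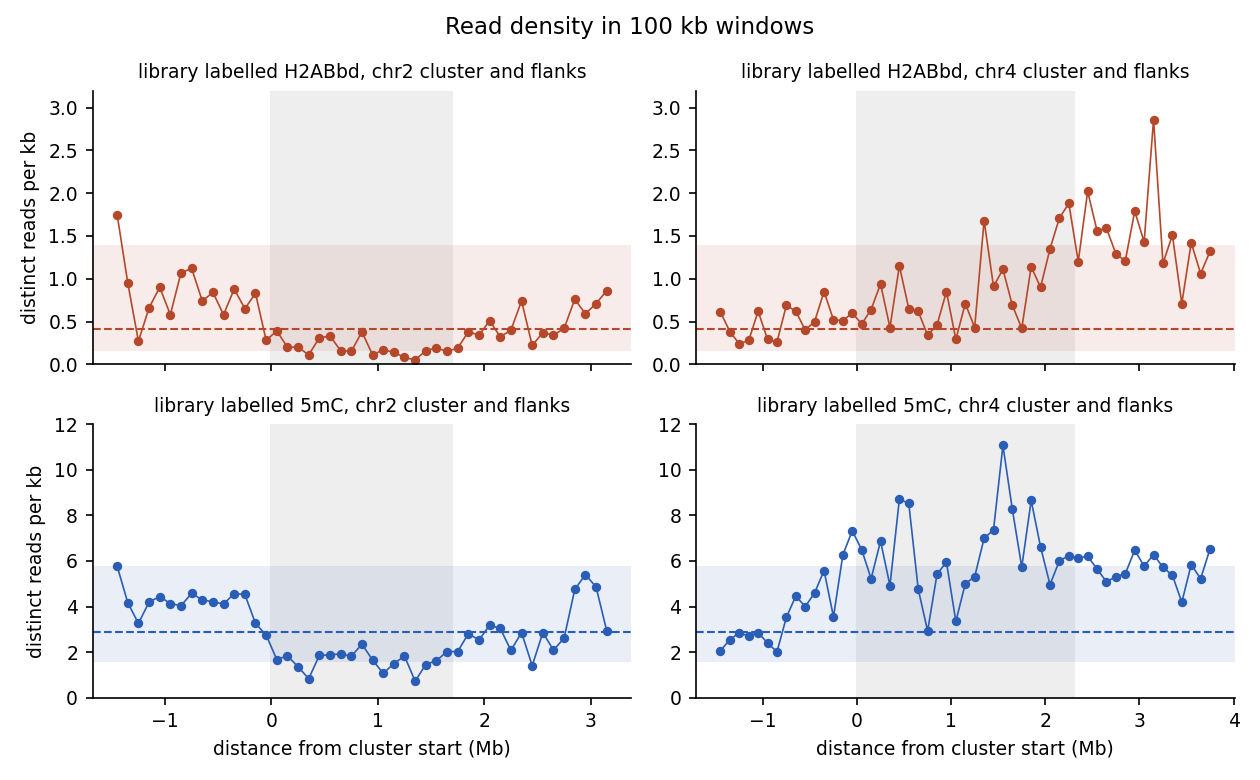
Distinct reads per kb in windows of 100 kb against the distance from the cluster start (Mb), for the library labelled H2ABbd (upper panels) and 5mC (lower panels). Grey blocks are the clusters, dashed lines the autosomal median and tinted bands the 5th to 95th percentile of autosomal windows. All 17 windows of the chromosome 2 cluster lie below the autosomal median in both libraries, and all 23 windows of the chromosome 4 cluster lie above it in the library labelled 5mC.

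Within the clusters the level was not even. In windows of 100 kb, the library labelled 5mC ran between 0.73 and 2.35 reads per kb on chromosome 2, with a median of 1.68, whereas the median autosomal window had 2.88 and the 5th and 95th percentiles were 1.55 and 5.77. Of the 17 windows 6 lay below that 5th percentile. The library labelled H2ABbd ran between 0.05 and 0.39 reads per kb there with a median of 0.16, against an autosomal median of 0.41, and 5 of 17 windows lay below the autosomal 5th percentile of 0.15. On chromosome 4 the range was 2.93 to 11.06 reads per kb with a median of 6.01 in the library labelled 5mC, and 13 of 23 windows lay above the autosomal 95th percentile. The library labelled H2ABbd ran between 0.29 and 1.88 with a median of 0.71, and 3 of 23 windows lay above its autosomal 95th percentile of 1.39. Across windows, densities of the 2 libraries had a Pearson correlation of 0.53 over 17 windows on chromosome 2 and 0.39 over 23 windows on chromosome 4, a description only, since windows share their sequence and the runs without reads described below.

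Reads in both clusters lay more often on the plus strand. In the chromosome 2 cluster 225 reads of the library labelled H2ABbd were on the plus strand and 103 on the minus strand, a plus share of 68.6% (63.3 to 73.6%), against 54.5% in the flanks (52.2 to 56.7%). Of the reads in the library labelled 5mC, 1996 were plus and 751 minus, a share of 72.7% (71.0 to 74.3%), against 55.7% in the flanks (54.8 to 56.7%). The chromosome 4 cluster had a plus share of 61.7% for H2ABbd (1220 plus, 757 minus, interval 59.5 to 63.9%), against 53.9% in its flanks (52.1 to 55.7%). For 5mC the share was 62.1% in that cluster (9020 plus, 5512 minus, 61.3 to 62.9%), against 52.3% in its flanks (51.4 to 53.1%). The proximal flank of chromosome 4 was not even either in the library labelled H2ABbd, at 61.5% (57.8 to 65.0%), a share that overlaps that of the cluster. Over all autosomes the shares were 54.3% (H2ABbd) and 52.7% (5mC), below those of both clusters in both libraries.

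The strands therefore gave different densities over the same bases. On chromosome 2 the cluster held 0.379 times the flank density of plus-strand reads (0.326 to 0.438) and 0.207 times that of minus-strand reads (0.168 to 0.255) in the library labelled H2ABbd, and 0.587 (0.557 to 0.617) and 0.278 (0.257 to 0.300) in the 5mC library. On chromosome 4 the library labelled 5mC held 1.59 times the flank density on the plus strand (1.54 to 1.64) and 1.06 times on the minus strand (1.02 to 1.10). For the library labelled H2ABbd these were 1.00 (0.927 to 1.08) and 0.726 (0.663 to 0.794). Here the H2ABbd strands did not differ against the proximal flank alone, at 1.76 (plus, 1.58 to 1.96) and 1.74 times (minus, 1.51 to 2.00). The distal flank alone gave H2ABbd ratios of 0.699 (plus, 0.644 to 0.758) and 0.459 (minus, 0.418 to 0.504). Against the distal flank alone, 5mC reads of the chromosome 4 cluster were more frequent on the plus strand, at 1.35 times, and less frequent on the minus strand, at 0.860 times.

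**Figure D3:**
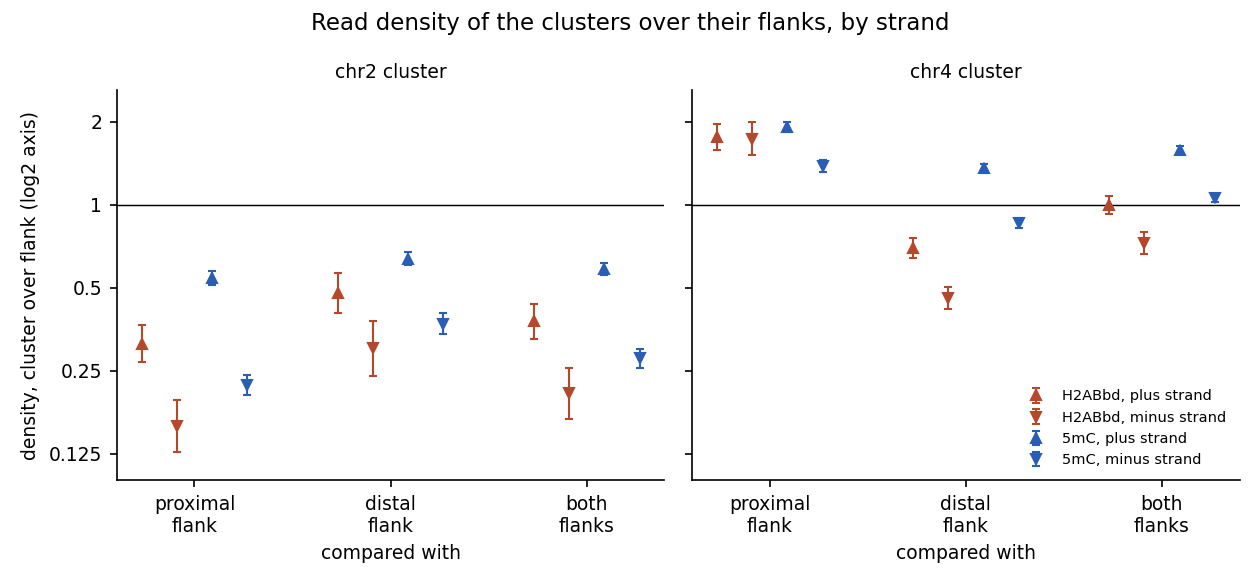
Density of distinct reads in each cluster over that of its proximal flank, distal flank and both flanks, on a log2 axis, for plus-strand reads (upward triangles) and minus-strand reads (downward triangles) of the library labelled H2ABbd (red) and 5mC (blue). Bars are 95% intervals for counting error. All ratios of the chromosome 2 cluster lie below 1, and those of the chromosome 4 cluster lie above 1 against the proximal flank and on both sides of 1 against the distal flank.

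The plus-strand lean of 5mC reads ran along the whole chromosome 2 cluster. A window of 100 kb with at least 20 reads was called plus-rich when the lower bound of its plus share exceeded 50%. By this rule 17 of 17 windows of the chromosome 2 cluster were plus-rich for 5mC, with a lowest share of 58.1%, a median of 75.3% and a highest of 81.3%, where 19.2% of autosomal windows were plus-rich. On chromosome 4 20 of 23 windows were, with shares between 48.0% and 80.1% and a median of 60.8%. For H2ABbd 4 of the 6 windows of the chromosome 2 cluster with enough reads and 12 of 23 on chromosome 4 were plus-rich, next to 19.3% of autosomal windows. Of those 6 windows, chr2:175400001-175500000 had the lowest plus share, 45.2%, and chr2:175800001-175900000 had 55.3%. No window of either cluster was minus-rich in any library, and over the autosomes 2.10% (H2ABbd) and 0.425% (5mC) were. The flanks differed among themselves, with 3 of 15 windows plus-rich in the proximal and 11 of 15 in the distal flank of chromosome 2 in the library labelled 5mC, and 6 of 15 and 2 of 15 on chromosome 4.

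Windows with an extreme share were rare elsewhere. Of 23999 autosomal windows, these clusters included, 36 (0.150%) had a plus share of 75% or more in the library labelled 5mC, and 9 of the 36 lay in the chromosome 2 cluster and 2 in the chromosome 4 cluster. The window chr2:176000001-176100000, at 81.3%, had the highest share of all 23999. The level of 75% was chosen after the values were seen. At 70% there were 141 windows, 12 in the chromosome 2 cluster and 4 in the chromosome 4 cluster. On chromosome 2, 3 more lay in the distal flank and 1 in the proximal flank. Plus shares of the libraries moved together along the chromosome 4 cluster, with a Pearson correlation of 0.74 over 23 windows. On chromosome 2 too few windows held 20 reads of the library labelled H2ABbd for such a value. Within the library labelled 5mC the plus share did not follow the density, with correlations of -0.02 on chromosome 2 and -0.06 on chromosome 4. These are descriptions, since windows of a cluster hold copies of the same sequence.

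**Figure D4:**
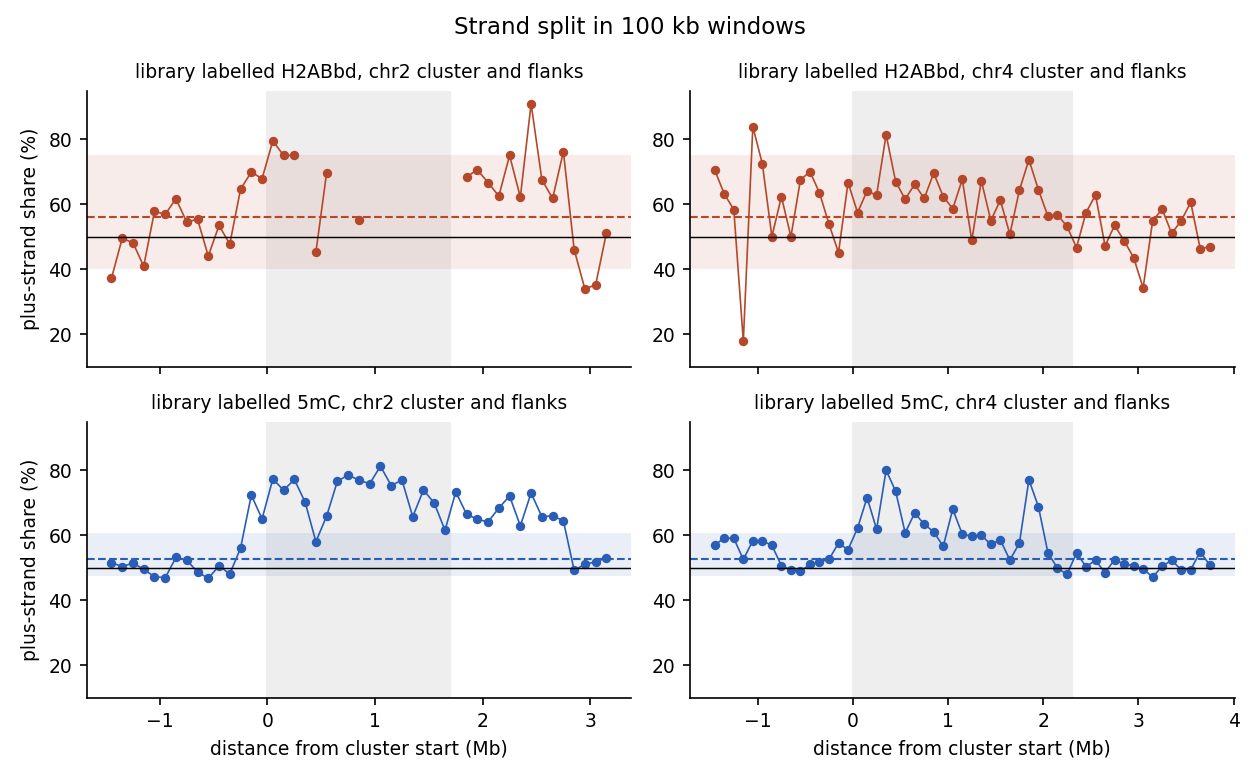
Share of distinct reads on the plus strand (%) in windows of 100 kb with at least 20 reads, against the distance from the cluster start (Mb), for the library labelled H2ABbd (upper panels) and 5mC (lower panels). Grey blocks are the clusters, the black line is an even split of 50%, and dashed lines and bands are the autosomal median and 5th to 95th percentile. In the library labelled 5mC all 17 windows of the chromosome 2 cluster lie above 50%, between 58.1% and 81.3%.

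Bins without a read were frequent in the chromosome 2 cluster. No read of the library labelled H2ABbd fell in 86.4% of its bins (84.7 to 88.0%), against 66.9% in the flanks (65.2 to 68.6%). The library labelled 5mC left 30.4% empty (28.2 to 32.7%), against 9.93% (8.89 to 11.1%). Neither library had a read in 477 bins, 28.1% of the cluster (25.9 to 30.3%), compared with 8.43% of the flanks. On chromosome 4 61.8% of the cluster's bins (59.8 to 63.8%) and 54.5% of the flanks' (52.7 to 56.3%) were empty in the library labelled H2ABbd, and 10.4% (9.17 to 11.7%) and 4.30% (3.60 to 5.09%) in the library labelled 5mC. Neither library had a read in 230 bins of that cluster, or 10.0%, against 3.07% of its flanks.

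Most of the bins of the chromosome 4 cluster without a read in either library lay in 4 long runs of nearly the same length. They were chr4:145490001-145540000, chr4:145967001-146017000 and chr4:146261001-146311000, of 50 kb each, and chr4:145772001-145821000, of 49 kb, 199 bins in all, and no other run of that cluster exceeded 2 kb. The chromosome 2 cluster held 3 such runs, chr2:175323001-175374000 and chr2:176333001-176384000, of 51 kb each, and chr2:175992001-176042000, of 50 kb. One more, chr2:177399001-177449000, lay in its distal flank. Over the autosomes 86 runs of 49 to 51 kb had no read in either library, so 7 of the 86 lay in the clusters. Whether these stretches hold sequence in mm9 was not tested, since no sequence of that build was used here.

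Outside the long runs the 2 clusters were not alike. On chromosome 4 1.48% of the remaining 2101 bins had no read in either library, and their 5mC density was 6.92 reads per kb. On chromosome 2 21.0% of the remaining 1548 bins still had none, at 1.77 reads per kb, in many short runs of which the longest was 4 kb. Reads spread evenly over those bins at the same density would leave 17.0% of them empty in the library labelled 5mC, and 23.6% were. On chromosome 4 an even spread would leave 0.0991% empty, and 1.90% were. A bin of the chromosome 2 cluster had 1 read of the library labelled 5mC in 25.6% of cases and 4 or more in 12.4%, whereas 43.3% of flank bins had 4 or more. On chromosome 4 69.0% of the cluster's bins and 59.1% of the flanks' had 4 or more.

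Reads that repeat a position already seen were few in the chromosome 2 cluster. Of its 345 reads of the library labelled H2ABbd 17 were repeats, or 4.93% (2.90 to 7.77%), against 18.0% in the flanks (16.5 to 19.6%). Of 2769 reads of the library labelled 5mC 22 were, or 0.795% (0.499 to 1.20%), against 3.75% (3.41 to 4.12%). No position of the cluster held more than 3 reads of the library labelled H2ABbd or more than 2 of the library labelled 5mC. On chromosome 4 the repeated share was 13.9% in the cluster (12.5 to 15.4%) and 20.4% in the flanks (19.1 to 21.8%) for H2ABbd, and 2.74% (2.49 to 3.02%) and 4.54% (4.21 to 4.89%) for 5mC. Over 100 kb windows of the chromosome 2 cluster the median 5mC repeat share was 0.592%, next to an autosomal median of 3.87%, and 13 of 17 windows lay below the autosomal 5th percentile of 1.32%. On chromosome 4 the sides differed for H2ABbd, with 15.4% in the proximal flank (13.1 to 18.0%), an interval that overlaps that of the cluster, and 22.0% in the distal flank (20.5 to 23.5%). For 5mC they had 3.83% on the proximal side (3.35 to 4.35%) and 5.01% on the distal side (4.56 to 5.48%), both above the cluster. No position of the chromosome 4 cluster held more than 4 reads of either library.

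The library ratio sets the H2ABbd reads of a region against its 5mC reads, each scaled to the total of distinct reads in its library (RPM). It was 0.688 in the chromosome 2 cluster (0.612 to 0.772) and 1.03 in the flanks, so the cluster stood at 0.669 times its flanks (0.590 to 0.757). The proximal flank had 1.12 and the distal flank 0.907, and the cluster lay below each, at 0.615 and 0.759 times. The chromosome 4 cluster had a ratio of 0.784 (0.748 to 0.822) and its flanks 1.20, which put the cluster at 0.654 times (0.615 to 0.696). Here the sides disagreed. Against the distal flank, at 1.5, the cluster stood at 0.523 times (0.490 to 0.559), but against the proximal flank, at 0.749, it stood at 1.05 times, with an interval of 0.958 to 1.15 that holds 1.

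In windows with at least 20 H2ABbd reads, the chromosome 4 cluster had its lowest ratio at chr4:145200001-145300000, its first window, with 0.418 (0.304 to 0.562, 47 H2ABbd and 649 5mC reads). Its highest ratio was at the opposite end, at chr4:147400001-147500000, with 1.74 (1.47 to 2.05, 188 H2ABbd and 623 5mC reads). The median of its 23 windows was 0.713, and 8 of them lay below the autosomal 5th percentile of 0.522. That percentile comes from 21120 of 24002 autosomal windows, since those with under 20 H2ABbd reads were left out. On chromosome 2 the lowest ratio among the 6 windows with enough reads was 0.627 at chr2:175100001-175200000 (0.374 to 0.996, 20 H2ABbd and 184 5mC reads) and the highest was 1.34 at chr2:175000001-175100000 (0.919 to 1.91, 39 H2ABbd and 168 5mC reads). These windows lie side by side at the start of the cluster. The filter acts on H2ABbd reads, so in this sparse cluster it kept the windows with most of them. The kept windows had a median ratio of 0.947, against 0.688 for the whole cluster. Those left out ran from 0.252 at chr2:176200001-176300000 (0.107 to 0.507, 8 H2ABbd and 183 5mC reads) to 0.916 at chr2:176000001-176100000.

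**Figure D5:**
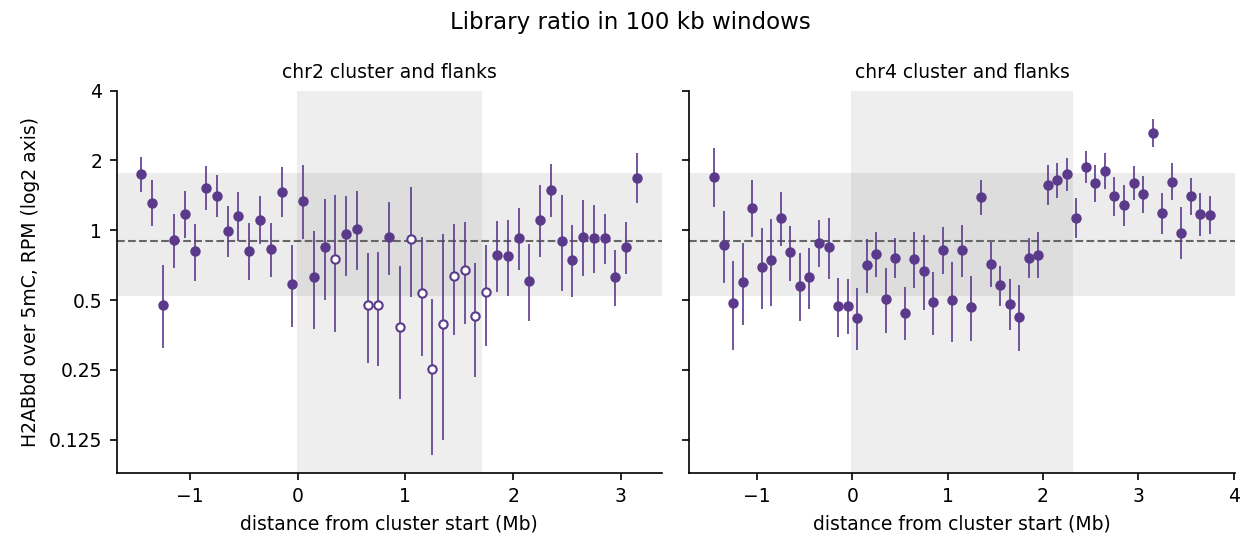
Ratio of H2ABbd to 5mC reads, each as RPM of its library, in windows of 100 kb on a log2 axis, against the distance from the cluster start (Mb). Grey blocks are the clusters, bars are exact 95% intervals for counting error, and open circles are windows with under 20 H2ABbd reads. The dashed line and band are the median and 5th to 95th percentile of autosomal windows with at least 20 H2ABbd reads. The last 3 windows of the chromosome 4 cluster lie between 1.57 and 1.74, near the level of the distal flank.

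Enriched bins, those at 4 or more times the mean of their chromosome with an adjusted Poisson tail of 0.01 or less, were few on chromosome 2 and frequent on chromosome 4. Over the genome 1.18% of bins were called for H2ABbd and 0.508% for 5mC. In the chromosome 2 cluster 3 of 1223 bins with a read (0.245%, 0.0506 to 0.715%) were called in the library labelled H2ABbd. For 5mC 0 of 1223 were, which allows a share of up to 0.245% by the limit of 3 counts and 0.301% by the Clopper-Pearson bound, both under the 0.508% of the background. In the chromosome 4 cluster 67 of 2070 (3.24%, 2.52 to 4.09%) were called for H2ABbd and 154 of 2070 (7.44%, 6.35 to 8.66%) for 5mC. For H2ABbd the distal flank had a like share, 4.22%, and the proximal flank 1.06%. For 5mC the flanks had 0.871% on the distal and 1.41% on the proximal side. The libraries differ in depth, so the H2ABbd and 5mC shares do not compare with each other. With the 5mC library thinned to 1397289 positions, the chromosome 4 cluster had 34 called bins for H2ABbd and 3 for 5mC. Over the genome 1.19% (H2ABbd) and 0.0565% (5mC) of bins were called then.

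Both libraries called 14 bins of the chromosome 4 cluster, which is 20.9% of those called for H2ABbd and 9.09% of those called for 5mC, and none on chromosome 2. Over the autosomes 2731 bins were called in both, 10.6% of the 25851 called for H2ABbd and 24.5% of the 11143 called for 5mC. Bins called for 5mC on chromosome 4 had 1.92 H2ABbd reads each, against 0.878 in the other bins with a read. Bins called for H2ABbd had 10.1 reads of the library labelled 5mC each, against 6.92 in the others. The plus-strand lean was not confined to called bins, with a plus share of 60.4% (58.6 to 62.1%) in bins called for 5mC and 62.5% (61.6 to 63.4%) in the others.

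The most covered bins of the library labelled H2ABbd on chromosome 4 lay side by side. They were chr4:146599001-146600000 with 22 reads, chr4:146597001-146598000 with 21 and chr4:146598001-146599000 with 17, against 6, 6 and 5 reads of the library labelled 5mC. They belong to an enriched stretch of 5 kb, chr4:146596001-146601000, with 72 H2ABbd reads, 51 of them on the plus strand, and 32 reads of the library labelled 5mC. The first of these bins stood at 32.2 times the chromosome mean for H2ABbd (20.2 to 48.7) and at 1.63 times for 5mC (0.599 to 3.55). Over the whole stretch H2ABbd stood at 21.0 times the chromosome mean (16.5 to 26.5) and 5mC at 1.74 times (1.19 to 2.46), which is 6.40 reads of the library labelled 5mC per kb, close to the 6.32 of the whole cluster.

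The bins with most reads of the library labelled 5mC lay elsewhere in the same cluster. They were chr4:146569001-146570000 with 41 reads, 11.2 times the chromosome mean (8.01 to 15.1), chr4:145717001-145718000 with 40 and chr4:146806001-146807000 with 38. They had 8, 3 and 3 reads of the library labelled H2ABbd, and the bin with 8 was enriched in both. The longest stretch enriched for 5mC was chr4:146772001-146779000, 7 kb long, with 21 H2ABbd and 171 5mC reads, and 90 of the 171 were on the plus strand. This stretch was close to even in strand, unlike the cluster as a whole.

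On chromosome 2 the top bins held far fewer reads. For H2ABbd they were chr2:175096001-175097000 and chr2:175809001-175810000 with 11 reads each and chr2:175091001-175092000 with 10, the 3 enriched bins of that cluster, with 3, 10 and 8 reads of the library labelled 5mC. All 11 H2ABbd reads of the bin at 175096001 were on the plus strand, and 3 of the 11 at 175809001 were. For 5mC they were chr2:175563001-175564000 with 11 reads, at 3.08 times the chromosome mean (1.54 to 5.51), chr2:175809001-175810000 with 10 and chr2:175837001-175838000 with 10, against 0, 11 and 1 reads of the library labelled H2ABbd. None reached the 15 reads that the call for 5mC needed on this chromosome.

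The intervals of the rule and the extent of these patterns did not coincide. On chromosome 2 the first 1100 kb of the distal flank lay between the cluster and the proximal flank in density, with 0.385 (H2ABbd) and 2.50 (5mC) reads per kb. They leaned to the plus strand as the cluster did, with 68.8% for H2ABbd (64.1 to 73.2%) and 66.9% for 5mC (65.1 to 68.7%). The last 400 kb of that flank had 0.730 (H2ABbd) and 4.49 (5mC) reads per kb and plus shares of 42.5% for H2ABbd (36.7 to 48.4%) and 51.1% for 5mC (48.8 to 53.5%). On the proximal side, chr2:174900001-175000000, next to the cluster, had 0.28 (H2ABbd) and 2.75 (5mC) reads per kb. Its plus shares were 67.9% (H2ABbd) and 65.1% (5mC). Before it, chr2:174800001-174900000 had 0.83 (H2ABbd) and 3.26 (5mC) reads per kb and plus shares of 69.9% (H2ABbd) and 72.4% (5mC). On chromosome 4 the last 300 kb of the cluster resembled the distal flank, with 1.65 (H2ABbd) and 5.73 (5mC) reads per kb and a library ratio of 1.66. Its plus shares were 55.3% for H2ABbd (50.8 to 59.7%) and 50.6% for 5mC (48.2 to 53.0%). Without those 300 kb the cluster had 0.742 (H2ABbd) and 6.41 (5mC) reads per kb, plus shares of 63.9% for H2ABbd (61.4 to 66.3%) and 63.6% for 5mC (62.8 to 64.4%), and a ratio of 0.667 (0.632 to 0.704). The 800 kb before the chromosome 4 cluster were already dense in 5mC reads, at 4.91 per kb, with a ratio of 0.688 (0.624 to 0.757) but a 5mC plus share of 52.8% (51.2 to 54.3%). Their H2ABbd plus share was 59.9% (55.3 to 64.4%). The 700 kb before those had 2.49 reads of the library labelled 5mC per kb and plus shares of 64.2% for H2ABbd (58.1 to 69.9%) and 57.4% for 5mC (55.0 to 59.7%). These stretches were chosen after the values were seen. The high 5mC density of the chromosome 4 cluster thus began before the interval and went on into the distal flank. A weaker plus-strand lean of 5mC reads was present in parts of the proximal flank of chromosome 4, and the last 300 kb of that cluster had none beyond counting error.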

How the data were processed

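The labels' protocols describe the libraries as given above. Per the submitters' processing notes, FastQC and Bowtie were run, with mm9 as the build. Versions and the handling of reads that match several places were not given in the sources used here, and that handling sets read density in duplicated sequence. Reads were counted from the deposited lines, 1 per alignment with position and strand. The deposited score column holds 1 value throughout and was not used. Broken lines, 8 (H2ABbd) and 1 (5mC), were left out. Read starts were moved 100 bp towards the 3′ end and distinct positions counted in 1 kb bins; bins tested for enrichment held a read in either library. The interval for a ratio of 2 counts and the call were tested on simulated Poisson counts. Counts per bin were more spread here, so that test does not show how they perform on these data. Named regions are, per cluster, the 3 bins with most reads in each library, the longest runs without reads, and the windows of highest and lowest ratio. One further run on each chromosome was named after its length was seen. Promoters and gene order come from RefSeq (GRCm38.p6). The regions, lists and rules were chosen with earlier results of these data known. Alternatives kept all reads, left out the most covered bins, thinned the 5mC library and changed flanks, bins and thresholds. The labelled cell type could not be checked, since no marker is measured. Python 3.11.15, numpy 2.4.6 and scipy 1.17.1 were used.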

Additional observations from a re-analysis of the deposited data

How the results depend on the processing

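Of 83 alternative values, 66 were planned and 17 chosen after the data were seen; 41 stayed within the interval of the reported value, or within 1.5 times for counts of bins, 41 moved further, and 1 crossed 1 with both intervals excluding 1. That one was the H2ABbd density of the chromosome 4 cluster, 0.874 times both flanks and 1.75 times the proximal flank alone, against 0.582 times the distal flank alone. The plus-strand and repeated shares and all values of the chromosome 2 enriched bins did not move under any alternative run for them. Some of these alternatives could not have moved them. Stricter thresholds cannot raise the 0 bins called for 5mC on chromosome 2. The 3 bins called for H2ABbd there stood at 16.2 to 17.9 times the chromosome mean, above the level of 8. Leaving out the most covered bins gave identical shares for the chromosome 2 cluster.

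Density over flanks of 0.5 Mb was 0.389 (H2ABbd) and 0.492 (5mC) on chromosome 2 and 0.808 (H2ABbd) and 1.13 (5mC) on chromosome 4. With flanks of 3 Mb it was 0.213 (H2ABbd) and 0.362 (5mC) on chromosome 2. On bins with a read in either library it was 0.383 (H2ABbd) and 0.572 (5mC) on chromosome 2 and 0.941 (H2ABbd) and 1.44 (5mC) on chromosome 4. Against the proximal flank alone it was 0.239 (H2ABbd) and 0.389 (5mC) on chromosome 2 and 1.67 (5mC) on chromosome 4, and against the distal flank alone 0.405 (H2ABbd) and 0.533 (5mC) on chromosome 2 and 1.11 (5mC) on chromosome 4. With all reads kept the H2ABbd value was 0.259 on chromosome 2 and 0.807 on chromosome 4, and without the 0.1% most covered bins the 5mC value on chromosome 4 was 1.29. Apart from H2ABbd on chromosome 4, every density kept its side of 1.

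The library ratio over flanks was 0.790 (chromosome 2) and 0.712 (chromosome 4) with flanks of 0.5 Mb, 0.588 on chromosome 2 with flanks of 3 Mb, and 0.759 on chromosome 2 and 0.523 on chromosome 4 against the distal flank alone. On chromosome 4 it was 1.05 against the proximal flank alone, across 1 with an interval that holds 1 (0.958 to 1.15), and 0.557 without the last 300 kb of the cluster.

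In bins of 5 kb the share without a read was 51.8% (H2ABbd) and 7.94% (5mC) on chromosome 2 and 20.0% (H2ABbd) and 8.04% (5mC) on chromosome 4. Without the long runs it was 23.6% for 5mC on chromosome 2, and 58.2% for H2ABbd and 1.90% for 5mC on chromosome 4. With the 5mC library thinned to 1397289 positions it was 78.4% (chromosome 2) and 41.0% (chromosome 4) for 5mC, against 86.4% and 61.8% for H2ABbd.

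Enriched bins of the chromosome 4 cluster numbered 17 (H2ABbd) and 70 (5mC) at an adjusted tail of 1e-05, with 0.383% (H2ABbd) and 0.205% (5mC) called over the genome. At 8 times the chromosome mean the 5mC count was 10, with 0.0771% called over the genome. With the thinned library it was 3, with 0.0565% called, and the H2ABbd count was 34, with 1.19% of 1367417 bins called. H2ABbd reads were not thinned there. Fewer bins held a read in either library, 1367417 against 2299806, so the mean that each bin was set against was higher for H2ABbd. For 5mC this setting differed from the main one only in the thinned positions and the bins tested as a result. At full depth the counts were 67 (H2ABbd) and 154 (5mC), so their order was reversed. No paired analysis was possible because each group is 1 library. Depth limits the chromosome 2 cluster most, where only 6 of 17 windows reached 20 reads of the library labelled H2ABbd.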
